A study of Homo sapiens with 15 samples.

Results

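The aldehyde dehydrogenase (ALDH) genes described here are 10 rows of a table of 26475 genes, taken by name: ALDH1A1, ALDH1A3, ALDH1B1, ALDH2, ALDH3A1, ALDH3A2, ALDH3B1, ALDH7A1, ALDH9A1 and ALDH18A1. Earlier results of these data were known when they were chosen. The study sequenced RNA of A549 cells, which came from a lung adenocarcinoma and are grown as an established human line, in 15 libraries that form 5 groups of 3. The first group was untreated. The other 4 groups all received 10 ng/ml of the type 2 cytokine interleukin-4 (IL4): one had IL4 alone, one IL4 with an agent named only as Compound A, one IL4 with a non-targeting control siRNA pool, and one IL4 with 1 uM of pooled ALOX15 siRNA. Treatment lasted 48 h per the labels. ALOX15 encodes arachidonate 15-lipoxygenase, an enzyme that puts oxygen onto polyunsaturated fatty acids. The sources used here give neither the dose nor the vehicle of Compound A, no amount for the non-targeting pool, and no mock transfection.

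Aldehyde dehydrogenases use NAD or NADP to oxidise aldehydes to the matching acids. The aldehydes come from ethanol, from retinol, from amino acids and from lipids whose chains have been broken by peroxidation, which makes the family one of the main routes by which a cell clears reactive lipid fragments. In lung adenocarcinoma cells the family is best known for ALDH1A1, whose activity is used to sort cells in culture, and for ALDH3A1, an enzyme that smoke constituents induce in airway epithelium.

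Library totals ran from 6407936 to 11031246 counts. Nothing in the labels says whether replicates were separate cultures, so the p-values rest on a spread between samples that may be only technical. One library, IL4 replicate 1, stood apart. It lay at 34.8 on principal component 2 of log2 CPM (counts scaled to 1 fixed library total) while the other 14 lay between -22.5 and 11.4. Its counts also followed transcript GC content, with a fitted trend spanning 1.35 on the log2 scale against 0.41 or less in the other libraries. ALOX15 matched the labels, at 0.134 to 0.318 CPM with ALOX15 siRNA against 3.24 to 3.90 CPM with control siRNA. All 6 epithelial markers were present, and their summed level was 6342 to 7249 CPM in untreated libraries and 8495 to 12441 CPM in IL4-treated ones. Of 9 alveolar type II markers, ABCA3 and LAMP3 averaged 1 CPM or more, while SFTPB was at 0 in every library and SFTPC at 0.02 CPM on average. That list summed to 39.1 to 40.3 CPM untreated, 59.0 to 77.7 with IL4, 53.4 to 61.8 with Compound A, 60.5 to 67.1 with control siRNA and 71.6 to 75.6 with ALOX15 siRNA. The fibroblast list summed to 9.14 to 11.5 CPM untreated, 19.3 to 28.1 with IL4, 9.45 to 13.1 with Compound A, 16.5 to 19.7 with control siRNA and 18.0 to 21.0 with ALOX15 siRNA, with COL1A2 at 0 throughout and 3 of 7 markers at 1 CPM or more. Of 6 leukocyte markers PTPRC, CD3E and MS4A1 were at 0 and only CD68, at 13.3 CPM on average, reached 1 CPM. That list summed to 11.1 to 14.8 CPM untreated, 16.9 to 22.5 with IL4, 7.56 to 12.4 with Compound A, 12.2 to 15.9 with control siRNA and 14.4 to 16.6 with ALOX15 siRNA. The endothelial list never exceeded 0.844 CPM. The 3 neuronal markers summed to 96.5 to 107 CPM untreated, 113 to 145 with IL4, 135 to 141 with Compound A, 111 to 130 with control siRNA and 98.6 to 104 with ALOX15 siRNA. The part of these shifts in the results below was not tested. In bulk RNA, fewer cells of a type and less RNA per cell cannot be told apart.

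The family was very unevenly expressed. ALDH1A1, a cytosolic enzyme that turns retinaldehyde into retinoic acid, had more counts than any other gene in 14 of the 15 libraries. The exception was Compound A replicate 3, where the ribosomal RNA gene RNA18S5 had more. The 10 genes together took 1.72% ± 0.0226 of all counts in untreated libraries (SD, n = 3), 1.54% ± 0.0962 with IL4, 1.61% ± 0.0362 with Compound A, 1.55% ± 0.0365 with control siRNA and 1.59% ± 0.0330 with ALOX15 siRNA. ALDH1A1 made up 78.9% of the untreated family total and 84.9% of that with ALOX15 siRNA. ALDH3A1 made up 13.2% of the first and 7.92% of the second.

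Levels of different genes were compared per length, as CPM per kilobase of the gene's principal transcript in GENCODE. In untreated cells ALDH1A1 stood at 6448 ± 206 CPM per kilobase (SD, n = 3), ALDH3A1 at 1182 ± 105 and ALDH3A2 at 148 ± 0.753. These leading genes and ALDH3B1, at 53.1 ± 3.49, were separated from each other in every untreated library. A middle set followed at 34.1 ± 1.95 for ALDH18A1, 33.3 ± 0.0895 for ALDH9A1, 28.6 ± 1.76 for ALDH2 and 25.9 ± 1.24 for ALDH1B1. Within it, ALDH18A1 and ALDH9A1 overlapped between libraries, as did ALDH2 and ALDH1B1. ALDH7A1 was at 14.6 ± 0.806 and ALDH1A3 at 1.24 ± 0.350. The transcripts the cells use were not measured, and the middle of this order depends on the length taken: per kilobase of all annotated exons ALDH3B1 was at 22.3 and fell below ALDH1B1, at 25.1.

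**Figure D1:**
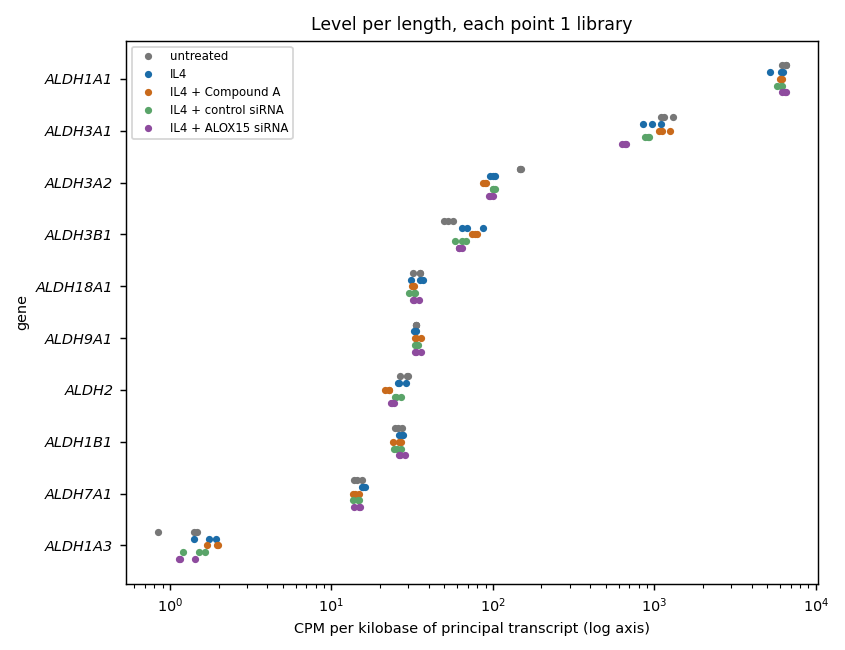
Level of each gene in CPM per kilobase of principal transcript, on a log axis, with 1 point per library and colours for the 5 groups; genes are in the order of their untreated mean. ALDH1A1 lies near 6448 and ALDH1A3 near 1.24 in untreated cells, and for ALDH3A1, ALDH3A2 and ALDH3B1 the untreated points are set off from those of at least 1 treated group. The same holds for ALDH1A1, ALDH1A3, ALDH2 and, narrowly, ALDH7A1.

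Promoter sequence is shown for ALDH1A1, because it was the most abundant member, and for ALDH3A2 and ALDH3B1, because they had the largest fall and the only rise with IL4 among members that passed. RefSeq promoters on GRCh38.p14 were matched for 8 of the 10 members, not for ALDH2 or ALDH3A1. Each sequence ends just before the annotated start or, for ALDH1A1, before an annotated untranslated region. They lie at chr9:72953057-72953303 (minus strand), chr17:19647886-19648135 (plus strand) and chr11:68008297-68008546 (plus strand). Capitals mark matches, on either strand, to the motifs named after the sequences.
ALDH1A1: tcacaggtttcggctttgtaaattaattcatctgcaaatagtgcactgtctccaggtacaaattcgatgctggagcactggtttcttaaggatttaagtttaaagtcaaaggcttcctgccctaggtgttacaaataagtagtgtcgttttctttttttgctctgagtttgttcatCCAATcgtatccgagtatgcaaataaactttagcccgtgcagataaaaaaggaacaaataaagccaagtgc
ALDH3A2: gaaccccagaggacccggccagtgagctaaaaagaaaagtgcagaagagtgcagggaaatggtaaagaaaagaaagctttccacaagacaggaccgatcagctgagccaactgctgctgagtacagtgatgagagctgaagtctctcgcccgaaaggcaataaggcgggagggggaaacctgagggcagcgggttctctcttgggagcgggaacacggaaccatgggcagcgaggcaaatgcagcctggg
ALDH3B1: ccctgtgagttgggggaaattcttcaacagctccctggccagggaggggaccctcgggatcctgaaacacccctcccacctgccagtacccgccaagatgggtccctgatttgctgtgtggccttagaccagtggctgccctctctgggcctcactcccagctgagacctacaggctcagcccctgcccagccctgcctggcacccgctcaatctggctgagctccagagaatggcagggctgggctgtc

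In these 3 windows the only match was a CCAAT box of ALDH1A1, 74 to 70 bases before its start. Over the full 250 bases before the start, CCAAT was found in 4 of the 8 members and in 33.0% of 27305 promoters. The GC box GGGCGG was found in 4 of 8 and in 42.3%. The core of the xenobiotic response element, GCGTG, was found in 1 of 8 (ALDH1A3) and in 31.9%. The core of the antioxidant response element, TGACNNNGC, was found in 11.0% of promoters and a STAT6 site, TTC and GAA with 4 bases between, in 5.35%, and neither in these 8 windows.

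How IL4 and the later treatments moved the family was tested by edgeR's quasi-likelihood test over 12795 genes, with Benjamini-Hochberg adjustment across that whole set; all 10 members passed the filter on low counts. With IL4 alone, ALDH3A1 and ALDH3A2 fell, ALDH3B1 rose and the other 7 members did not pass. That is 3 of 10, where 22.9% of all genes passed in this comparison (11.2% up and 11.6% down). The members' median log2 change was -0.01 and that of all genes -0.02. The same 3 genes passed in the same directions when the control siRNA group, which had IL4 as well, was set against the same untreated libraries, where 19.3% of all genes passed (9.93% up and 9.36% down). Because the untreated libraries are shared, the second comparison is no independent evidence of the first.

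With Compound A against IL4 alone, ALDH3A1 rose and ALDH2 fell, 2 of 10 where 14.4% of all genes passed (6.35% up and 8.07% down). Against control siRNA, ALDH3A1 and ALDH3B1 rose and ALDH3A2 fell, 3 of 10 where 5.28% passed (1.86% up and 3.42% down). With ALOX15 siRNA against control siRNA, ALDH3A1 fell and no other member passed, 1 of 10 where 0.696% of all genes passed (0.313% up and 0.383% down). Control siRNA against IL4 alone gave no call by edgeR among the members or among all genes (0%). At an unadjusted p under 0.05 it gave 1 member and 628 genes, and DESeq2 called 0 members and 2 genes. Members' medians were 0.02, 0.03, 0.02 and -0.08 in these 4 comparisons, in the order given, and that of all genes was 0.00 in each.

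**Figure D2:**
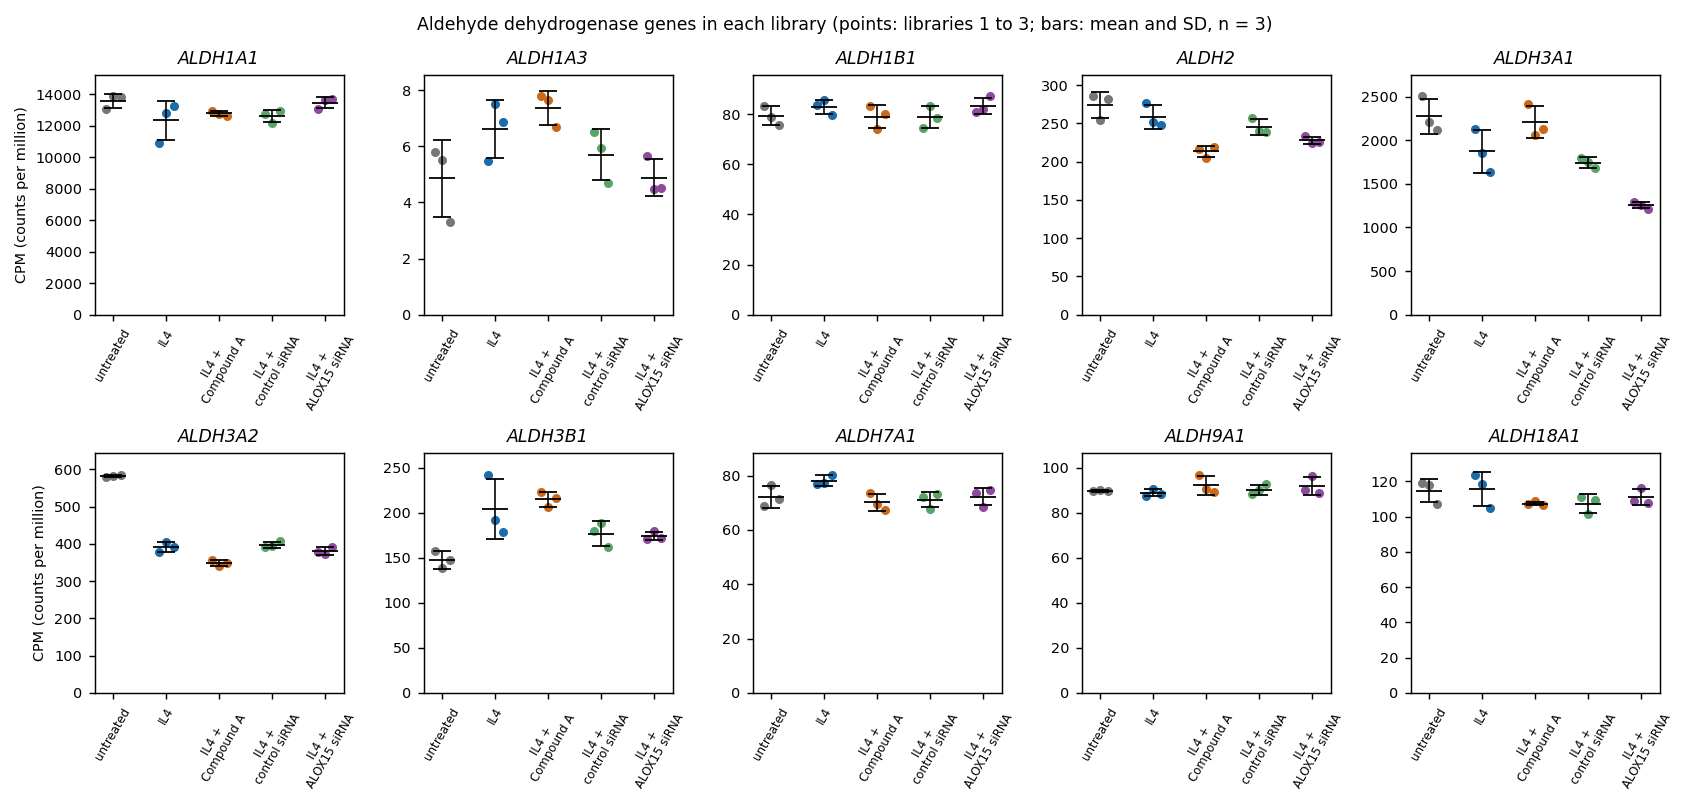
CPM of the 10 genes in every library, 1 panel per gene with its own axis from 0; points are libraries and black bars the mean and SD of 3. In the ALDH3A1 panel the ALOX15 siRNA libraries lie at 1216 to 1292 CPM, below all others, and in the ALDH3A2 panel the untreated libraries lie at 580 to 585 CPM, above all others.

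ALDH3A1 encodes a cytosolic enzyme that oxidises aromatic and medium-chain aldehydes, including products of lipid peroxidation, and lies on the minus strand of chromosome 17, 19737984 to 19748943 of GRCh38. Untreated cells held 2502, 2205 and 2118 CPM in replicates 1, 2 and 3. IL4-treated cells held 2126, 1855 and 1636 CPM, and those with control siRNA 1796, 1752 and 1678 CPM. The IL4 libraries were spread over a wide range whose upper end met the untreated ones, while the control siRNA libraries all lay below the untreated ones. The log2 change with IL4 was -0.29 (SE 0.07, edgeR adjusted p = 0.0060), and it was -0.38 (SE 0.07, adjusted p = 0.00068) for control siRNA against untreated.

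The fall of ALDH3A1 with IL4 alone passed in 22 of 24 alternative settings and kept its sign in all 24. It did not pass without untreated replicate 1, where the change was -0.20 (edgeR adjusted p = 0.063). Nor did it pass with only the untreated and IL4 groups in the fit, where the change was -0.27 (adjusted p = 0.093). With a correction for each library's GC trend it was -0.45 (adjusted p = 1.3e-09), and the transcripts of ALDH3A1 average 60.6% GC, above 86.8% of tested genes. Against untreated, the control siRNA comparison passed in all 24 alternative settings.

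With Compound A, ALDH3A1 was at 2412, 2065 and 2134 CPM, a range that overlapped both the untreated and the IL4 libraries and lay above all control siRNA ones. The log2 change was 0.26 against IL4 (SE 0.07, edgeR adjusted p = 0.020). It was 0.35 against control siRNA (SE 0.07, adjusted p = 0.0072), a 1.28-fold rise. The first call did not hold in 6 of the 24 alternative settings: with upper-quartile scaling (0.23), with only the compared groups fitted (0.26), and on leaving out IL4 replicate 2 (0.25) or 3 (0.19) or, of the Compound A group, replicate 1 (0.20) or 3 (0.28), with adjusted p from 0.052 to 0.12. With the GC correction it was 0.44 (adjusted p = 3.7e-08). The rise against control siRNA passed in all 24.

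With ALOX15 siRNA, ALDH3A1 was at 1292, 1262 and 1216 CPM, and the group mean fell from 1742 ± 59.7 to 1256 ± 38.2 CPM (SD, n = 3). All 3 libraries lay below every other library of the series. The log2 change against control siRNA was -0.46 (SE 0.07, 95% interval -0.61 to -0.30, edgeR adjusted p = 0.0036), a 1.37-fold decrease. It passed in all 24 alternative settings, between -0.48 and -0.41. By size this change ranked at percentile 2.51 of the 12795 changes, counted from the lowest.

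Compound A and ALOX15 siRNA thus moved ALDH3A1 in opposite directions, each against its own reference. The gap between these effects was 0.72 on the log2 scale (SE 0.10, 95% interval 0.51 to 0.93, edgeR adjusted p = 0.00032). It was the only 1 of the 10 members to pass this test, in which 5.14% of all genes passed (1.94% up and 3.2% down), and it stayed between 0.64 and 0.85 in the 24 alternative settings. ALOX15 itself was lower with both treatments. Against IL4 it changed by -1.23 with Compound A (SE 0.25, edgeR adjusted p = 0.0033), and against control siRNA it fell with ALOX15 siRNA to the levels given above, 1 to 2.47 counts per library (adjusted p = 8.5e-05).

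ALDH3A2 encodes the fatty aldehyde dehydrogenase of the endoplasmic reticulum, which oxidises long-chain aldehydes, among them the product of sphingosine phosphate breakdown. It lies near ALDH3A1 on chromosome 17, 19648136 to 19677598, on the plus strand and 60.4 kb away. Between them lies SLC47A2, 19678288 to 19718979, which had too few counts to test. Untreated cells held 580, 581 and 585 CPM, and the IL4 group 379, 404 and 392 CPM. The control siRNA group held 391, 393 and 406 CPM, the ALOX15 siRNA group 377, 373 and 393 CPM, and the Compound A group 358, 341 and 349 CPM. The untreated libraries were tightly grouped and stood clear of all 12 IL4-treated ones.

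The log2 change of ALDH3A2 with IL4 was -0.58 (SE 0.05, 95% interval -0.68 to -0.48, edgeR adjusted p = 1.4e-08), a 1.50-fold decrease. For control siRNA against untreated it was -0.55 (SE 0.05, adjusted p = 3.7e-08). Both passed in all 24 alternative settings. The Compound A libraries lay below those of IL4 and of control siRNA, with changes of -0.14 (SE 0.05, adjusted p = 0.058) and -0.17 (SE 0.05, adjusted p = 0.043). The first passed in 6 alternative settings and the second failed in 13, among them all 9 that dropped a library given Compound A or either siRNA. With ALOX15 siRNA against control siRNA the change was -0.04, with a 95% interval of -0.14 to 0.06.

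The other genes of that stretch of chromosome 17 were read beside the pair. Within 200 kb of the pair lie 4 other protein-coding genes, of which 3 had enough counts to test. With IL4, SLC47A1, a transporter of organic cations, fell by 0.28 on the log2 scale (edgeR adjusted p = 0.018). ULK2, an autophagy kinase, gave 0.24 (adjusted p = 0.070) and AKAP10, an anchor of protein kinase A, gave -0.09 (adjusted p = 0.48). With Compound A against IL4 AKAP10 rose by 0.25 (adjusted p = 0.043) while the other tested neighbours gave 0.01 and 0.15, neither of which passed. With ALOX15 siRNA the 3 gave -0.04, 0.01 and -0.11, with adjusted p from 0.76 to 0.996.

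ALDH3B1 encodes a membrane-bound enzyme that oxidises fatty aldehydes and other lipid-derived aldehydes, and lies on the plus strand of chromosome 11, 68008578 to 68029282. Its level was 158, 138 and 147 CPM untreated and 243, 192 and 179 CPM with IL4. The control siRNA group held 180, 189 and 162 CPM, the ALOX15 siRNA group 171, 179 and 172 CPM, and the Compound A group 223, 207 and 216 CPM. All IL4-treated libraries lay above all untreated ones, and IL4 replicate 1 was the highest of the series. The log2 change with IL4 was 0.45 (SE 0.08, edgeR adjusted p = 0.00034), a 1.37-fold rise that passed in all 24 alternative settings. Without IL4 replicate 1 it was 0.33, and with the GC correction 0.28; the transcripts of ALDH3B1 average 61.2% GC.

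For control siRNA against untreated, ALDH3B1 changed by 0.26 (SE 0.08, edgeR adjusted p = 0.030). That call was lost without untreated replicate 2 or 3 or control siRNA replicate 1 or 2, with adjusted p from 0.058 to 0.14. Compound A gave 0.10 against IL4 (adjusted p = 0.40), which became 0.23 (adjusted p = 0.015) without IL4 replicate 1 and 0.29 (adjusted p = 5.6e-05) with the GC correction. Against control siRNA it gave 0.30 (SE 0.08, adjusted p = 0.037), and this was lost in 10 of 24 alternative settings. ALOX15 siRNA gave -0.01, with a 95% interval of -0.18 to 0.17.

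Of the 2 members that make retinoic acid, ALDH1A1 (minus strand of chromosome 9, 72900662 to 73080442) was at 13086, 13870 and 13801 CPM untreated and at 10929, 12822 and 13260 CPM with IL4. Compound A libraries held 12968, 12765 and 12638 CPM of it, control siRNA libraries 12741, 12204 and 12949 CPM, and ALOX15 siRNA libraries 13059, 13669 and 13682 CPM. IL4 replicate 1 was the lowest library of the series, and the transcripts of ALDH1A1 average 43.3% GC, against a median of 49.8% over tested genes. The change with IL4 was -0.15 (SE 0.06, 95% interval -0.27 to -0.02), which did not pass (edgeR adjusted p = 0.087). It passed without IL4 replicate 3, at -0.22 (adjusted p = 0.0095). Without IL4 replicate 1 it was -0.05 (adjusted p = 0.42), and with the GC correction -0.05 (adjusted p = 0.24). ALOX15 siRNA gave 0.11, with a 95% interval of -0.02 to 0.23.

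ALDH1A3, the other retinaldehyde oxidase, was low, with 22 to 73 counts per library. Its level was 5.80, 5.50 and 3.29 CPM untreated, 5.49, 7.53 and 6.86 CPM with IL4 and 7.78, 7.66 and 6.67 CPM with Compound A. The control siRNA group held 6.51, 5.93 and 4.70 CPM and the ALOX15 siRNA group 5.64, 4.49 and 4.51 CPM. No comparison passed. The 95% interval for IL4 against untreated, -0.02 to 0.82 on the log2 scale, shows how little this depth fixes.

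ALDH2, the mitochondrial enzyme that oxidises acetaldehyde, was at 285, 255 and 282 CPM untreated and at 276, 251 and 248 CPM with IL4. With control siRNA it was at 257, 240 and 238 CPM and with ALOX15 siRNA at 233, 224 and 226 CPM. With Compound A it was at 216, 205 and 219 CPM, below all 12 other libraries. The change with Compound A against IL4 was -0.25 (SE 0.06, edgeR adjusted p = 0.0071), a 1.19-fold decrease. It was lost only with the 2 compared groups fitted alone (adjusted p = 0.072). Against control siRNA it was -0.19 (SE 0.06, adjusted p = 0.070), which passed in 4 alternative settings, one of them without IL4 replicate 1 (adjusted p = 0.013). ALDH2 gave -0.09 with IL4 and -0.09 with ALOX15 siRNA, neither of which passed, though the first did with the GC correction (adjusted p = 0.016). Control siRNA against untreated gave -0.16 (SE 0.06, adjusted p = 0.059). That passed without untreated replicate 2 (adjusted p = 0.048), without IL4 replicate 1 (0.017) and with the GC correction (0.0018), but not without any other single IL4 or untreated library. ALDH1B1, another mitochondrial enzyme with acetaldehyde among its substrates, stayed between 74.0 and 87.1 CPM in all libraries, and no comparison passed.

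The last 3 members serve amino acid and carnitine metabolism. ALDH18A1 makes the precursor of proline and ornithine and ranged from 101 to 124 CPM. ALDH7A1 acts in lysine breakdown and ranged from 67.5 to 80.3 CPM, and ALDH9A1 acts in carnitine synthesis and ranged from 87.6 to 96.9 CPM. None of them passed in any comparison. ALDH7A1 gave -0.13 with Compound A against IL4 (edgeR adjusted p = 0.20), with every Compound A library below those of IL4, and passed there with the GC correction (adjusted p = 0.031). For IL4 against untreated the 95% intervals of ALDH18A1 and ALDH9A1 were -0.14 to 0.14 and -0.15 to 0.10 on the log2 scale. ALDH7A1 gave 0.11 there (edgeR adjusted p = 0.28), although its 3 IL4 libraries, at 76.8 to 80.3 CPM, all lay just above the untreated ones. GENCODE lists 4 pseudogene copies of ALDH7A1, which makes its value uncertain to that extent.

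**Figure D3:**
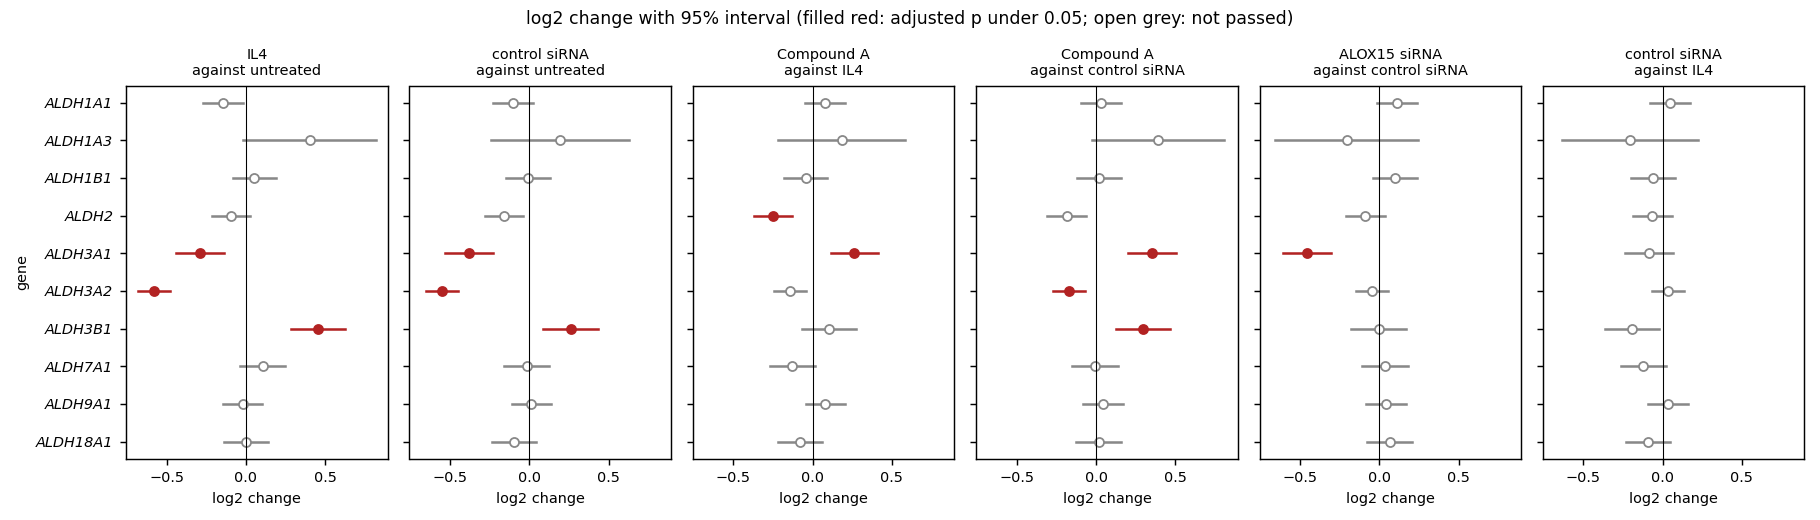
log2 change of each gene with its 95% interval in 6 comparisons; filled red points had an edgeR adjusted p under 0.05 and open grey points did not. The plot shows ALDH3A1 to the left with ALOX15 siRNA, at -0.46, and to the right with Compound A, at 0.26 and 0.35.

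Of the 9 remaining human ALDH genes, 4 were too low to test. ALDH3B2 had no count, ALDH1A2 had 1 count in each of 2 libraries, ALDH8A1 had at most 6 counts per library and ALDH1L1 at most 14. The other 5 were tested, and the most abundant, ALDH1L2 and ALDH5A1, stood in untreated cells at 18.0 ± 3.18 and 15.2 ± 1.16 CPM per kilobase (SD, n = 3), beside 14.6 ± 0.806 for ALDH7A1. ALDH5A1, which acts in the breakdown pathway of the neurotransmitter GABA, rose with IL4 from 34.4 ± 2.63 to 41.7 ± 0.843 CPM (SD, n = 3, log2 0.27, SE 0.08, edgeR adjusted p = 0.023). ALDH1L2, a mitochondrial folate enzyme, was at 136 ± 24.0 CPM untreated and at 163 ± 27.1 CPM with IL4 (0.26, adjusted p = 0.14). It passed in control siRNA against untreated (0.42, adjusted p = 0.025). ALDH4A1, ALDH6A1 and ALDH16A1 passed in no comparison. With Compound A against IL4 and with ALOX15 siRNA edgeR called 0 of the 5, with 1 and 0 at an unadjusted p under 0.05, and DESeq2 called 0 in both. Among all genes edgeR called 22.9% with IL4 and 19.3% for control siRNA against untreated. It called 14.4% with Compound A against IL4 and 0.696% with ALOX15 siRNA, with 3950 and 1140 of 12795 at an unadjusted p under 0.05. Beside these shares, few calls among 5 genes say little.

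Genes of retinoid metabolism and signalling, the pathway that ALDH1A1 and ALDH1A3 feed, changed with IL4 in 8 of 18 tested cases, 5 up and 3 down, beside the 22.9% of all genes that passed there, and their median change was 0.01. TGM2, a transglutaminase induced by retinoic acid, rose from 206 ± 15.7 to 785 ± 125 CPM (log2 1.91, SE 0.09, edgeR adjusted p = 1.7e-11). STRA6, the retinol receptor, rose from 18.2 ± 3.17 to 48.0 ± 11.0 CPM, and RARRES3, a phospholipase induced by retinoids, from 1.14 ± 0.358 to 3.98 ± 0.235 CPM. RDH10, which makes the retinaldehyde that ALDH1A enzymes use, fell from 87.1 ± 3.03 to 45.4 ± 4.20 CPM (-0.94, SE 0.09, adjusted p = 9.4e-08). RBP4, the carrier of retinol in blood, fell from 26.9 ± 0.260 to 17.6 ± 1.57 CPM.

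With Compound A against IL4, 1 of these 18 rose and 1 fell, beside 14.4% of all genes: RDH10, by 0.49 (SE 0.09, edgeR adjusted p = 0.0018), and RARA, a retinoic acid receptor named after its value was seen, by -0.36. For Compound A against control siRNA, 1 of the 18 rose and 0 fell, beside 5.28% of all genes, so the fall of RARA did not pass there. With ALOX15 siRNA 2 of 18 fell, both close to the threshold, and none rose, beside 0.696% of all genes (0.383% down). STRA6 gave -0.58 (SE 0.13, adjusted p = 0.047) and RARRES1, also named after its value was seen, -0.57 (SE 0.13, adjusted p = 0.0497). At an unadjusted p under 0.05 edgeR gave 8 of the 18 there, and 1140 of all 12795 genes. Of 4 tested alcohol dehydrogenases and other aldehyde-oxidising enzymes, AOX1, an aldehyde oxidase that does not use NAD, rose with IL4 from 3.34 ± 0.952 to 22.5 ± 2.38 CPM (log2 2.69, SE 0.19, adjusted p = 1.6e-09). The alcohol dehydrogenase ADH6 gave -0.70 (adjusted p = 0.067), and ADH5 and ESD gave -0.10 and -0.08. None of these 4 passed with Compound A or with ALOX15 siRNA by edgeR or DESeq2, with 1 at an unadjusted p under 0.05 in each.

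ALDH3A1 belongs to the genes that the stress factor NRF2 can induce, and its list of 18 genes, all tested, was read beside it. With IL4, 6 fell and 1 rose, again beside 22.9% of all genes, and the median change was -0.15 against -0.02 for all genes. NQO1, a quinone reductase, fell from 2750 ± 14.5 to 2126 ± 12.8 CPM (-0.38, SE 0.04, edgeR adjusted p = 4.7e-07), and GPX2, a glutathione peroxidase, from 662 ± 82.3 to 415 ± 67.1 CPM. With Compound A against IL4, 3 rose and 5 fell, with a median of 0.00, beside 14.4% of all genes. TXNRD1, thioredoxin reductase, rose from 3117 ± 185 to 3935 ± 80.9 CPM (0.36, SE 0.05, adjusted p = 0.00016). GCLC, the catalytic subunit of glutamate-cysteine ligase, which starts glutathione synthesis, rose by 0.19 (SE 0.06, adjusted p = 0.038). UGDH, which makes UDP-glucuronate, and GPX2 fell by 0.16 and 0.40 on the log2 scale. For Compound A against control siRNA, 1 of the 18 rose and 2 fell, with a median of -0.01, beside 5.28% of all genes.

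With ALOX15 siRNA, where ALDH3A1 fell, edgeR and DESeq2 called 0 of these 18 genes, beside 0.696% of all genes by edgeR. At an unadjusted p under 0.05 edgeR gave 5 of the 18, and 1140 of all 12795 genes. NQO1 gave 0.09 and GPX2 -0.35 (edgeR adjusted p = 0.13). GCLC was at 483 ± 23.8 CPM with control siRNA and at 423 ± 9.12 CPM with ALOX15 siRNA. In the same order TXNRD1 was at 3352 ± 40.0 and 3064 ± 61.7 CPM, and UGDH at 830 ± 25.3 and 804 ± 6.99 CPM. When the Compound A effect was tested against that of ALOX15 siRNA, 3 of 18 passed, all upward like ALDH3A1, beside 5.14% of all genes (1.94% up): TXNRD1 by 0.48 (SE 0.07, adjusted p = 0.00048), GCLC by 0.36 (SE 0.08) and GCLM, the regulatory subunit beside GCLC and named after its value was seen, by 0.54 (SE 0.13). The aryl hydrocarbon receptor gene AHR, whose product can also induce ALDH3A1, fell with IL4 from 202 ± 8.47 to 141 ± 9.14 CPM (-0.52, SE 0.07, adjusted p = 6.4e-06). It was the only 1 of 5 tested genes of its list to pass there, beside 22.9% of all genes. CYP1B1, a classic target of the receptor, gave 0.22 (adjusted p = 0.20). AHR was at 122.6 ± 4.71 CPM with Compound A, where ALDH3A1 rose, and at 147.6 ± 8.86 CPM with control siRNA. Between these groups edgeR called 1 of the 5 genes, which fell, beside 5.28% of all genes. The other genes of the list had higher means with Compound A. For Compound A against IL4 edgeR and DESeq2 called 0 of the 5, with 1 at an unadjusted p under 0.05. Among all genes edgeR called 14.4% there. With ALOX15 siRNA AHR gave -0.01 and TIPARP, another target, -0.01. CYP1B1 was at 24.6 ± 3.08 CPM with control siRNA and at 29.9 ± 3.51 CPM with ALOX15 siRNA. In that comparison edgeR called 0 of the 5 genes, with 1 at an unadjusted p under 0.05, beside 0.696% of all genes called.

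**Figure D4:**
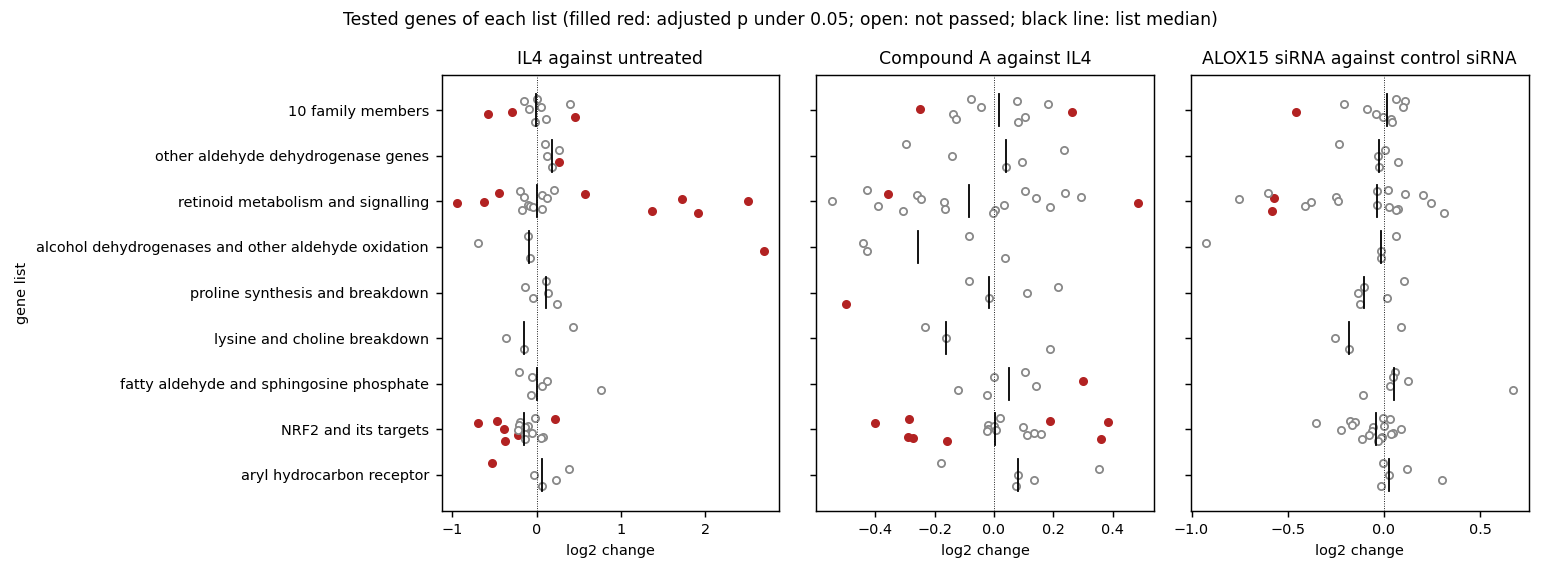
log2 change of every tested gene of the 10-member family and of 8 related lists in 3 comparisons, each with its own horizontal axis; filled red points had an edgeR adjusted p under 0.05 and black lines are list medians. The family's median lies at -0.01, 0.02 and 0.02, and AOX1, at 2.69 with IL4, is the farthest point of the first panel.

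Lists around the other members were short, with 5, 3 and 6 tested genes, so few calls say little about them. Among all genes 22.9% passed with IL4, 14.4% with Compound A against IL4 and 0.696% with ALOX15 siRNA. In proline metabolism, beside ALDH18A1, edgeR and DESeq2 called 0 of 5 tested genes with IL4 or ALOX15 siRNA, with 0 at an unadjusted p under 0.05. PYCRL, a pyrroline carboxylate reductase, changed by -0.50 with Compound A against IL4 (SE 0.15, edgeR adjusted p = 0.027). Against control siRNA edgeR called 0 of the 5, with 1 at an unadjusted p under 0.05, beside 5.28% of all genes called. In lysine and choline breakdown, beside ALDH7A1 and ALDH9A1, only AADAT, CHDH and GCDH had enough counts. Neither edgeR nor DESeq2 called any of them in the 3 main comparisons, with 1, 0 and 0 at an unadjusted p under 0.05. Beside ALDH3A2, PHYH, which starts the breakdown of phytanic acid, rose with Compound A against IL4 from 39.7 ± 1.82 to 47.9 ± 2.94 CPM (0.30, SE 0.08, adjusted p = 0.016). It was the only call among 6 tested genes there, and against control siRNA 1 of the 6 rose. SGPL1, the lyase that releases a fatty aldehyde from sphingosine phosphate, gave 0.07 with IL4 (adjusted p = 0.44) and 0.14 with Compound A (adjusted p = 0.096).

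Genes whose log2 CPM ran most like that of a member over the 15 libraries were looked up for the 3 members with the widest range of group means, which was 0.85 for ALDH3A1, 0.74 for ALDH3A2 and 0.61 for ALDH1A3. For ALDH3A1 they were CYP24A1 (Pearson r = 0.97), GALM (0.95), TBX3, OLFM2 and GPRC5A (0.93 each). CYP24A1 averaged 699 CPM untreated, 601 with IL4, 715 with Compound A, 587 with control siRNA and 398 with ALOX15 siRNA, the same order of groups at its lower end as ALDH3A1. For ALDH3A2 they were TM4SF20 (0.99), CENPF (0.98), CEACAM6 (0.98), ARHGAP11A (0.97) and IGFBP3 (0.97). For ALDH1A3 they were KCNJ2 (0.91), PAQR7 (0.83), LOC100506746 (0.80), RAB3B (0.79) and TEKT4P2 (0.76). These values describe libraries that share treatments, and they were picked as the highest among the 12795 genes tested.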

How the data were processed

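RSEM expected counts were deposited by the authors as unscaled estimates of reads per gene, 1 column for each library. Per the submitters' processing notes, Bowtie2 2.1.0, RSEM 1.2.15 and the hg38 genome were used. The annotation, the read filters and whether strand was used are not given in the sources used here. Members' counts were whole numbers in all 15 libraries, within 1e-06. Annotated genes overlap ALDH1A1, ALDH1A3, ALDH3A1, ALDH3A2, ALDH3B1 and ALDH9A1 on the opposite strand, and others overlap ALDH1A3, ALDH2, ALDH3A2, ALDH7A1 and ALDH9A1 on the same strand. Without strand, reads of opposite genes cannot be told apart.

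Counts were rounded, filtered with filterByExpr, scaled by TMM and tested with edgeR 4.0.16 in R 4.3.3 (quasi-likelihood with the robust option, all 15 libraries in one fit by group, 10 residual degrees of freedom). The SE is the absolute log2 change over the square root of F. The fit was also run on simulated counts with planted changes, but with no GC trend and no library set apart, and nothing here rests on that run. CPM uses all counts of a library, and log2 CPM adds a prior count of 2. Members and lists were chosen with earlier results of these data known. All members are named, and of each list up to 5 genes with at least 1 CPM and the smallest p in 3 comparisons. Alternatives were RLE and upper-quartile scaling, 2 other filters, unrounded counts, DESeq2 1.42.0, compared groups only, a replicate block, each library left out, and a GC correction (loess span 0.3) chosen after seeing the data. Gene models came from GENCODE release 29 and promoters from RefSeq (GRCh38.p14).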

Additional observations from a re-analysis of the deposited data

How the results depend on the processing

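Each of 70 results (10 genes in 7 comparisons) was recomputed under up to 24 alternatives. Of the 13 called, 7 were called in all of them; 48 of the others were called in none and 9 in some. No value that changed sign passed, and the largest was 0.076. The number of members called with Compound A against IL4, 2, became 0 with only the compared groups fitted, 5 with the GC correction, and 1 to 4 with 1 library left out. It went from 3 to between 2 and 5 for control siRNA against untreated and to between 1 and 4 for Compound A against control siRNA with 1 library left out, and from 1 to 2 with the GC correction for Compound A's effect minus that of ALOX15 siRNA.

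Changes of sign on the log2 scale were as follows. With IL4, ALDH9A1 gave 0.0041 with upper-quartile scaling, ALDH18A1 gave -0.00045 with the stricter filter, and the GC correction gave -0.059 for ALDH1B1 and -0.034 for ALDH18A1. For control siRNA against untreated, ALDH1B1 gave 0.00014 with RLE scaling and 0.0033 with only the compared groups. The GC correction gave -0.0089 for ALDH1A1 and 0.076 for ALDH1B1 with Compound A against IL4, -0.013 for ALDH1A1 against control siRNA, and 0.043 for ALDH3B1 with ALOX15 siRNA.

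With 1 library left out, signs changed within these ranges. With IL4, ALDH9A1 ran from -0.032 to 0.0091 and ALDH18A1 from -0.036 to 0.052. ALDH1A1 ran from -0.016 to 0.15 with Compound A against IL4, from -0.049 to 0.11 for control siRNA against IL4, and from -0.12 to 0.039 in the difference. ALDH3B1 ran from -0.067 to 0.039 with ALOX15 siRNA and ALDH3A2 from -0.0059 to 0.046 for control siRNA against IL4. For control siRNA against untreated, ALDH1B1 ran from -0.046 to 0.045 and ALDH7A1 from -0.045 to 0.051. For Compound A against control siRNA, ALDH1B1 ran from -0.017 to 0.067, ALDH7A1 from -0.043 to 0.022 and ALDH18A1 from -0.027 to 0.045. The cause was not tested.

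Over all genes, 2925, 1846, 89 and 675 calls (IL4, Compound A against IL4, ALOX15 siRNA, Compound A against control siRNA) became 1466, 397, 325 and 1768 with only the compared groups. With 1 library left out they ran from 1982 to 3311, 769 to 3016, 35 to 272 and 220 to 1638; the lowest were without untreated replicate 2, Compound A replicate 2, ALOX15 siRNA replicate 3 and Compound A replicate 2.

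Replicate numbers paired the libraries weakly if at all. Same-numbered libraries' deviations had r from -0.13 to 0.27, with a median of 0.018 against -0.0042 for different numbers. Of 15 libraries, 8 were closest to their own number. With the replicate block, 4, 3 and 1 members were called for IL4, Compound A against IL4 and ALOX15 siRNA, and 3363, 2508 and 128 genes in all. The block called ALDH1A1 with IL4 (adjusted p = 0.042) and ALDH2 for control siRNA against untreated (adjusted p = 0.034). Depth limits ALDH1A3 most, at 22 to 73 counts.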
